A study of Mus musculus with 6 samples.

Results

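The protocadherins described here are the 10 genes *Pcdh1*, *Pcdh7*, *Pcdh8*, *Pcdh9*, *Pcdh10*, *Pcdh12*, *Pcdh17*, *Pcdh18*, *Pcdh19* and *Pcdh20*, which stand as solitary genes outside the alpha, beta and gamma protocadherin clusters. They were taken by symbol from a table of 24207 loci, of which 23097 carry a gene symbol, and each of the 10 symbols was found at 1 entry. The table compares male mouse embryos at embryonic day 9.5 (E9.5), 3 of them Smchd1+/+ (wildtype) and 3 Smchd1MommeD1/MommeD1 (homozygous mutant, with no other allele or treatment named). Matings of heterozygous parents gave embryos of both genotypes, RNA was prepared from the embryos and, per the labels, the yolk sac was used for genotyping. The labels give the strains as C57Bl6/J x FVB/n, whereas the study's text describes a backcross to 129T2/SvEms, and the strain background was not tested here. *Smchd1* encodes a chromatin protein needed for X inactivation, and MommeD1 is a chemically induced mutant allele of it.

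Protocadherins are transmembrane proteins of the cadherin superfamily, with a row of extracellular cadherin repeats that bind mostly to the same protocadherin on the next cell. The clustered genes share regulatory sequence and are switched on in random combinations in single neurons, which gives each neuron its own surface identity. The non-clustered delta protocadherins each have a promoter and a cytoplasmic tail of their own and are known for marking regions and cell populations of the embryo, above all in the nervous system and in the paraxial mesoderm that forms somites. The delta-1 subgroup here holds *Pcdh1*, *Pcdh7* and *Pcdh9*, and the delta-2 subgroup holds *Pcdh8*, *Pcdh10*, *Pcdh17*, *Pcdh18* and *Pcdh19*. *Pcdh12*, a protocadherin of endothelial cells, and *Pcdh20* are further solitary genes.

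The values are FPKM, fragments per kilobase of transcript scaled to the number of mapped fragments, with 1 value per genotype pooled by the authors over its 3 embryos. No value per embryo was used, so there is no spread between embryos, no test was run and the depth of the libraries is unknown. Differences are therefore described by their size, as a log2 ratio of mutant over wildtype with 0.1 FPKM added to each value, and a ratio of at least 1.5-fold was counted as past the fold. In bulk RNA of embryos, fewer cells of a type and less RNA per cell cannot be told apart. The mutated gene itself was at 2.12 FPKM in the mutants and 34.0 FPKM in the wildtype, a log2 ratio of -3.94.

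For the genes at the ends of the ranges described below, the promoter sequences of RefSeq (GRCm38.p6) are shown, each covering 250 bases before to 50 bases after a gene start, with every CpG in capitals because CpG methylation is a usual companion of silencing by Smchd1 on the inactive X chromosome. *Pcdh10* had the highest ratio of mutant over wildtype among the 10 genes and *Pcdh7* the lowest, while *Pcdh18* had the highest transcript level and *Pcdh20* the lowest. The windows are chr3:45378148-45378447 on the plus strand for *Pcdh10*, chr5:57717831-57718130 on the plus strand for *Pcdh7*, chr3:49757267-49757566 on the minus strand for *Pcdh18* and chr14:88471347-88471646 on the minus strand for *Pcdh20*. Methylation was not analysed here.
Pcdh10: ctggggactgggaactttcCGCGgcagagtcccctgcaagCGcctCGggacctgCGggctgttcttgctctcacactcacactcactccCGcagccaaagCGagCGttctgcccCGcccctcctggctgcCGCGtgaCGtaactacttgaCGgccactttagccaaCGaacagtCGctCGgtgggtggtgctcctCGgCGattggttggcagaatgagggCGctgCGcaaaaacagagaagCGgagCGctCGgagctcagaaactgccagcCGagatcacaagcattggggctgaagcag
Pcdh7: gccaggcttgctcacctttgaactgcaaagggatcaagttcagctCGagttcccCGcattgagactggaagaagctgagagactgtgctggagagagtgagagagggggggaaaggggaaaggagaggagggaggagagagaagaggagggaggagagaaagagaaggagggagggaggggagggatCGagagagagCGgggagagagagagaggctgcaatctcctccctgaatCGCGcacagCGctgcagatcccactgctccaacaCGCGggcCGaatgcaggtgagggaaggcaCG
Pcdh18: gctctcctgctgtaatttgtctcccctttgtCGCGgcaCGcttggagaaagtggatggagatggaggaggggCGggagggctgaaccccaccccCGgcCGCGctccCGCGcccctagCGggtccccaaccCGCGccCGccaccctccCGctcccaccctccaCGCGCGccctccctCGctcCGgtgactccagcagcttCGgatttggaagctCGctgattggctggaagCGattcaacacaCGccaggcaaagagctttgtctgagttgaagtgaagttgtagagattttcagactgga
Pcdh20: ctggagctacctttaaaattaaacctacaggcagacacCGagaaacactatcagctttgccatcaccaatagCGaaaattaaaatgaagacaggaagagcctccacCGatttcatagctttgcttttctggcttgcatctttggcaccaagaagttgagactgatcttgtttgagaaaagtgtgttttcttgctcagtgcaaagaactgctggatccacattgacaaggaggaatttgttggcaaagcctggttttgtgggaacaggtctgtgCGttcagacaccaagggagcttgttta

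The CpG content of these windows went from 24 in *Pcdh10* and 23 in *Pcdh18* to 11 in *Pcdh7* and 4 in *Pcdh20*. *Pcdh17* had 26, *Pcdh19* had 18, *Pcdh8* had 14 and the windows at a pair of starts of *Pcdh9* had 18 and 19. The median over all 32851 promoter windows of the same length was 7, and a count of at least 24 was found in 20.0% of them, one of at least 4 in 68.6%. Of the 10 genes, 8 were in the promoter table, and all but *Pcdh20* lay above the median. *Pcdh10* and *Pcdh18*, both among the CpG-richer windows, differed in their ratios, as the values below show. Whether CpG content goes with the ratio was not tested.

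The genes also share a coding structure that the choice of symbols did not use. In GENCODE M21 the longest coding transcript of each gene has a coding exon of at least 2147 bases, a size reached by 2.86% of the 21924 protein-coding genes, whose median largest coding exon was 334 bases. In 8 of the 10 genes this is the first coding exon, which in protocadherins carries the extracellular repeats. It held 62.5% of the coding bases in *Pcdh19*, 73.1% in *Pcdh18*, 81.8% in *Pcdh8* and 84.3% in *Pcdh7*. In *Pcdh20* the second exon held 95.4%, and in *Pcdh1* the second held 68.0%. Around this similar core the genes differ widely in span, from 4.54 kb in *Pcdh8* and 6.65 kb in *Pcdh20* to 415 kb in *Pcdh7* and 877 kb in *Pcdh9*.

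**Figure D1:**
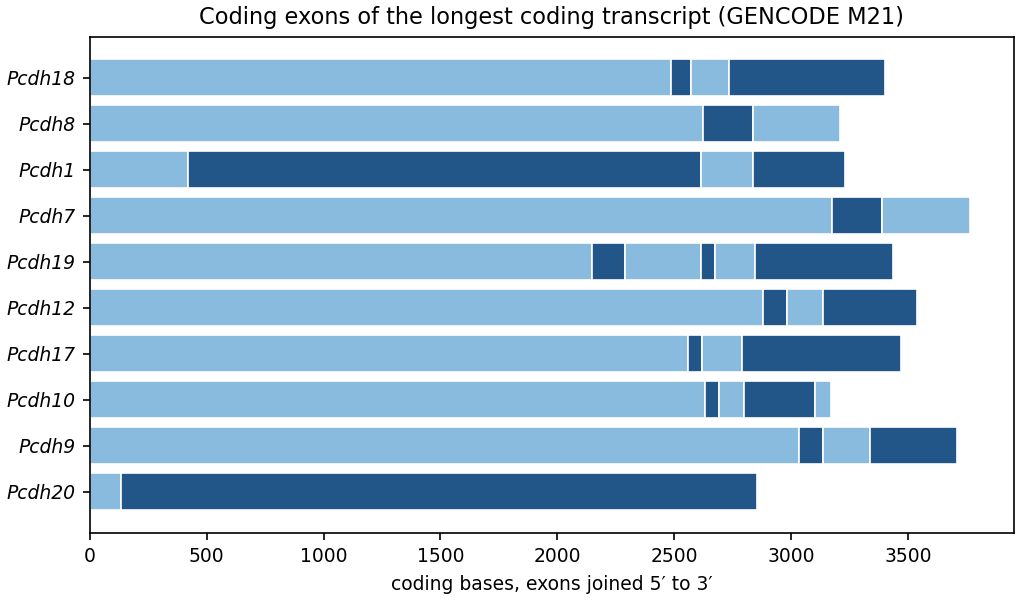
Coding exons of each gene joined in order from 5′ to 3′, in bases, with neighbouring exons in alternating shades and genes ordered by mean FPKM. A large exon of 2147 to 3174 bases makes up most of each coding sequence.

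*Pcdh18* was the most abundant of the 10 genes, at 18.2 FPKM in the mutants and 16.3 FPKM in the wildtype, and supplied 38.3% and 36.6% of the summed FPKM of all 10. Behind it came *Pcdh8*, *Pcdh1* and *Pcdh7*, all between 5.18 and 8.72 FPKM in either genotype. *Pcdh19*, *Pcdh12* and *Pcdh17* followed between 1.70 and 4.01 FPKM. *Pcdh10* stood near 1 FPKM, and *Pcdh9* and *Pcdh20* were below 0.3 FPKM in both genotypes. The order was the same in the genotypes except at adjacent places: *Pcdh1* ranked second in wildtype and *Pcdh8* second in mutant embryos, and *Pcdh12* and *Pcdh17* also changed places. Without a spread between embryos it cannot be said whether neighbours in this order differ. The authors' program gave *Pcdh9* and *Pcdh20* as not tested for too few reads and the other 8 genes as having enough.

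**Figure D2:**
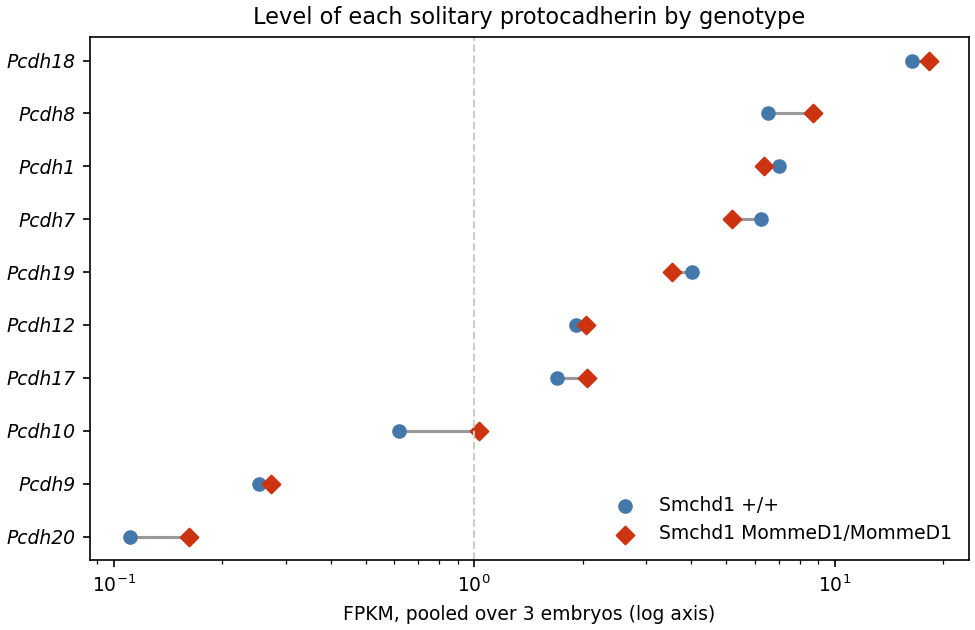
FPKM of each gene on a log axis, with the wildtype value as a circle and the mutant value as a diamond, each pooled over 3 embryos, and a dashed line at 1 FPKM. Most pairs of points lie close together beside the differences in level between genes, and the widest relative gaps are those of *Pcdh10* and *Pcdh20*.

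Over the 10 genes, transcript levels were close in the genotypes. The summed FPKM of the 10 genes was 47.5 in mutant and 44.7 in wildtype embryos, 1.06-fold higher in the mutants. In all, 7 genes were higher and 3 lower, with log2 ratios from -0.26 to 0.65 and a median of 0.12. With a mean FPKM of 1 or more over the genotypes, 7 genes were left, and of these 0 were past 1.5-fold in either direction. Among all 11980 loci with a symbol and such a mean, 3.2% were past 1.5-fold higher and 1.08% past 1.5-fold lower in the mutants, so a count of 0 in 7 genes does not set these genes apart. The median of those 7 was 0.09, beside -0.01 for all 11980 loci.

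Among the delta-2 genes, *Pcdh8* had the largest difference in FPKM. This gene, known as paraxial protocadherin in the presomitic mesoderm and as arcadlin at synapses, is listed on chromosome 14 of mm10 from 79766772 to 79771312. It was at 8.72 FPKM in the mutants and 6.55 FPKM in the wildtype, a log2 ratio of 0.41 (1.33-fold). That ratio was above those of 94.1% of the 11980 loci, and above 94.9% of the 4409 loci with a mean FPKM within 2-fold of its own.

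Genes of the tissue that *Pcdh8* is known to mark had ratios on both sides of 0, but only lower ones were past 1.5-fold. Of 8 tail bud and presomitic mesoderm genes with a mean FPKM of 1 or more, 3 were higher and 5 lower, and the median was -0.52. Of these, 0 and 4 were past 1.5-fold, beside 3.2% and 1.08% of all 11980 loci. With no filter, 7 of the 11 genes listed were past 1.5-fold lower. With a mean FPKM of 5 or more as the filter the median was -0.09 and with 0.1 or more -0.99. *T*, the Brachyury factor of the tail bud, was at 3.23 and 7.75 FPKM in mutant and wildtype embryos (log2 ratio -1.24), and *Msgn1*, a factor of the presomitic mesoderm, at 2.88 and 7.57 FPKM (-1.36). *Hes7*, an oscillating repressor of the segmentation clock, had the lowest ratio of the 8, -1.52. *Mesp2*, which acts upstream of somite boundaries and was below 1 FPKM, was at 0.153 and 0.402 FPKM. The Notch ligand *Dll3* had the highest, 0.39 (9.87 and 7.50 FPKM), and *Lfng* and *Dll1*, the most abundant of the list, had 0.12 and 0.04. *Pcdh8* thus lay beside *Dll3* and apart from *T*, *Tbx6* (-0.81), *Msgn1* and *Hes7*. The part of the other tissues that express *Pcdh8* in its ratio was not tested.

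*Pcdh10*, known as OL-protocadherin, binds the Nap1 subunit of the actin-regulating WAVE complex and serves axon growth. It is listed on chromosome 3 from 45378398 to 45439309. The gene was at 1.03 FPKM in the mutants and 0.619 FPKM in the wildtype, a log2 ratio of 0.65 (1.57-fold), the highest of the 10 genes and the 1 ratio past 1.5-fold. Its mean of 0.825 FPKM lies just under the limit of 1 FPKM. Ratios of this size were common at such levels: of 3111 loci with a mean of 0.1 to 1 FPKM, 16.4% were past 1.5-fold higher and 6.85% past 1.5-fold lower. Its ratio was above that of 86.8% of 2072 loci within 2-fold of its level. With 1 FPKM added in place of 0.1 it came to 0.33, below the fold.

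*Pcdh17*, a delta-2 protocadherin of axons and synapses at chr14:84443563-84537528, was at 2.05 FPKM in the mutants and 1.70 FPKM in the wildtype, a log2 ratio of 0.26. *Pcdh18*, which binds the adaptor Dab1 and lies at chr3:49743296-49757316, differed by 1.88 FPKM between 18.2 and 16.3 FPKM, but its log2 ratio was 0.16. *Pcdh19*, whose human counterpart is an epilepsy gene on the X chromosome, lies at chrX:133582861-133688993 and was the 1 delta-2 gene that was lower, at 3.53 FPKM in the mutants and 4.01 FPKM in the wildtype (log2 ratio -0.18). The 425 X-linked loci with a mean FPKM of 1 or more had a median of -0.07. Such loci on chromosomes 3, 5, 14 and 18, which hold the other solitary genes, had -0.04, 0.01, -0.03 and -0.06. These embryos, being male, have no inactive X chromosome, and a part of X linkage in the ratio of *Pcdh19* was not tested. For *Pcdh17*, *Pcdh18* and *Pcdh19* the ratio lay between percentiles 14.1 and 89.2 of all loci with a mean FPKM of 1 or more.

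The delta-1 genes with the higher levels both had ratios below 0. *Pcdh7*, first described in brain and heart and listed at chr5:57570084-58133207, a span that starts upstream of the RefSeq promoter shown above, was at 5.18 FPKM in the mutants and 6.23 FPKM in the wildtype, a log2 ratio of -0.26 (1.20-fold lower) and the lowest of the 10 genes, below all but 6.76% of the 11980 loci. *Pcdh1*, an adhesion protein of epithelia at chr18:38174044-38211847, was at 6.35 and 6.98 FPKM (-0.13). *Pcdh9*, a gene of the developing brain at chr14:93013701-93888732, was at 0.273 and 0.253 FPKM (0.08). The summed FPKM of the delta-1 genes was 11.8 in mutant and 13.5 in wildtype embryos (log2 ratio of the sums -0.19), and that of the delta-2 genes was 33.5 and 29.2 (0.20). These sums rest mainly on *Pcdh1* and *Pcdh7* in the first subgroup and on *Pcdh18* and *Pcdh8* in the second, and the difference between the subgroups was not tested.

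*Pcdh12* was close in the genotypes, as were endothelial genes. Listed at chr18:38267092-38284401, it was at 2.04 FPKM in the mutants and 1.92 FPKM in the wildtype, a log2 ratio of 0.09. Of 11 endothelial genes, 0 were past 1.5-fold in either direction, with a median of 0.00 and a range from -0.36 for the angiopoietin receptor *Tek* to 0.31 for *Pecam1*. The junction genes *Cldn5* (21.2 and 17.8 FPKM, log2 ratio 0.25) and *Cdh5* (19.1 and 19.7 FPKM, -0.05) were the most abundant. *Pcdh20*, at chr14:88464747-88471396, was at 0.162 FPKM in the mutants and 0.111 FPKM in the wildtype, with a log2 ratio of 0.31 that reached 0.54 with no value added and 0.06 with 1 FPKM added.

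Several of the genes are best known from the nervous system, where markers of neurons were far apart in the genotypes. All 11 neuron genes were higher in mutant embryos, 9 of them past 1.5-fold, with a median of 1.14. Tubulin gene *Tubb3* was at 99.9 and 37.0 FPKM (log2 ratio 1.43) and *Dcx*, a microtubule protein of migrating neurons, at 5.37 and 1.62 FPKM (1.67), while *Gap43*, at 39.9 and 31.4 FPKM, had the lowest ratio, 0.34. Among 7 neural progenitor genes, 6 were higher and 1 was past 1.5-fold, *Fabp7* with 1.06, and the median was 0.21. *Nes* (0.52) and *Sox2* (0.11) were the most abundant of them and *Pax6* had the lowest ratio, -0.10. The ratios of 8 of the 10 solitary protocadherins lay below those of all 11 neuron genes, and those of *Pcdh8* and *Pcdh10* lay above *Gap43* and *Isl1* (0.35) and below the other 9. The count of 8 does not set these genes apart. Of the 11980 loci with a mean FPKM of 1 or more, 91.4% lay below the 0.31 of *Pcdh20*, which is itself below all 11 neuron genes. Whether these protocadherins differ within neurons was not tested.

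The clustered protocadherins, the family most like these genes, lie on chromosome 18 from 36930285 to 37841872 and make up 23 entries of the table, since 37 alpha and gamma symbols are counted together as 1 entry. In that entry single alpha or gamma genes cannot be told apart. It was at 62.1 FPKM in the mutants and 57.5 FPKM in the wildtype (log2 ratio 0.11), above the summed FPKM of the 10 solitary genes. The 22 beta genes had less, 10.5 FPKM in the mutants and 2.46 FPKM in the wildtype when summed, yet each was higher in the mutants. *Pcdhb22* was at 2.31 and 0.539 FPKM (1.91), *Pcdhb2* at 1.14 and 0.165 FPKM (2.22) and *Pcdhb6* at 0.665 and 0.0564 FPKM (2.29). *Pcdhb1* and *Pcdhb9* were listed at 0 in the wildtype, so no fold is given for them.

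The families can also be set side by side at a like mean over the genotypes. Of the 15 beta genes with a mean of 0.1 to 1 FPKM, 14 were past 1.5-fold higher and 13 exceeded the 0.65 of *Pcdh10*. Their median was 1.32, with a lowest ratio of 0.51 in *Pcdhb21*. Some of them, such as *Pcdhb6* (0.0564 FPKM in the wildtype), reached a mean of 0.1 FPKM only through their mutant value. The filter thus partly sets these counts and the median. *Pcdh9*, *Pcdh10* and *Pcdh20*, the solitary genes with a mean in the same range, had 0.08, 0.65 and 0.31, and each was above 0.1 FPKM in the wildtype. Several beta genes of that range, *Pcdhb21* among them, were not tested by the authors' program for too few reads, like *Pcdh9* and *Pcdh20*. The share past 1.5-fold higher in that range was the 16.4% given above. The beta genes share 1 locus and are similar in sequence, so reads can be assigned wrongly between them and their values are not independent of each other. The difference between the families was not tested.

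**Figure D3:**
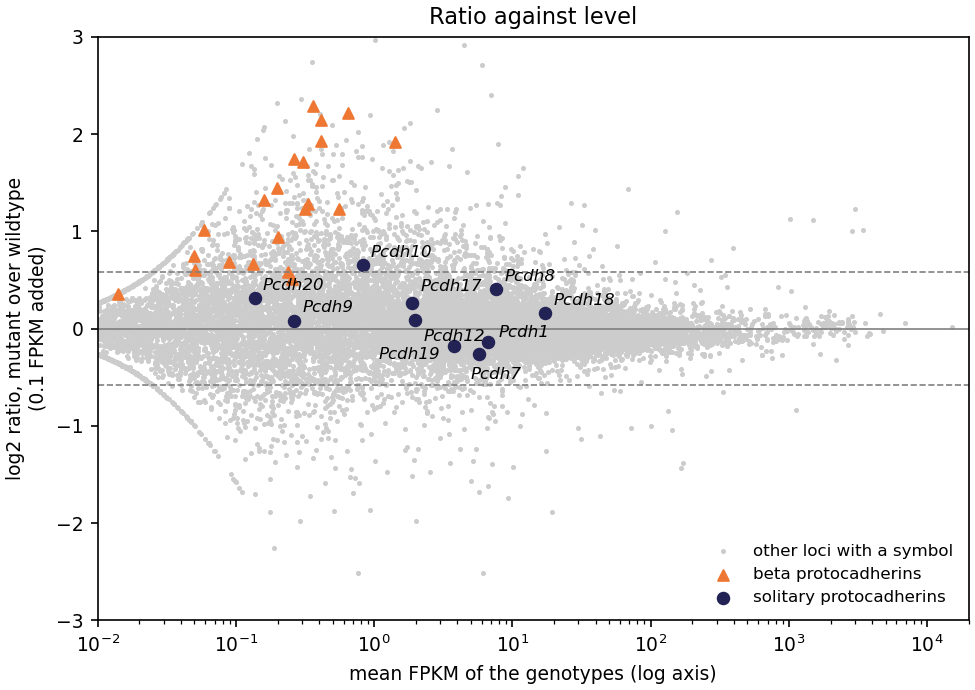
Log2 ratio of mutant over wildtype against mean FPKM (log axis) for loci with a symbol and a mean FPKM of 0.01 or more (grey), the 10 solitary protocadherins (dark circles) and beta protocadherins (triangles), with dashed lines at 1.5-fold and 11 loci beyond a log2 ratio of 3 in either direction not drawn. The solitary genes stay within or just past the dashed lines, and most beta genes lie above them.

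The solitary genes nearest to the cluster, *Pcdh1* and *Pcdh12*, had log2 ratios of -0.13 and 0.09. *Pcdh1* starts 332 kb and *Pcdh12* 425 kb beyond the end of the clustered locus, and 3 loci with a mean FPKM of 1 or more between the cluster and *Pcdh1* had log2 ratios from -0.19 to 0.06. Counting loci by their listed start, 10 such loci lay within 1 Mb of *Pcdh1*, with a median of 0.01 and 0 past 1.5-fold in either direction. The beta genes, *Pcdhb22* among them, are not in that count, since all are listed with the start of the whole clustered locus, which lies farther off. On both sides the nearest neighbours, *0610009O20Rik* and *1700086O06Rik* at 64.4 kb and *Arap3* at 201 kb, had 0.02, -0.07 and -0.15. *Rnf14*, the next after *Pcdh12*, had 0.00.

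*Pcdh8* also had 10 such neighbours, with a median of 0.01 and a range from -0.26 to 0.24, so its own 0.41 was above each of them. The nearest were *Gm10845* at 93.7 kb (0.11) and *Sugt1* at 179 kb (-0.08). *Pcdh19*, at -0.18, had 6, from -0.15 to 0.48, with *Tspan6* at 308 kb the nearest (-0.13), and *Pcdh18* had 1, *Slc7a11* at 622 kb (-0.23). *Pcdh7*, *Pcdh9*, *Pcdh10*, *Pcdh17* and *Pcdh20* had 0. The median number of such neighbours around all 11980 loci was 16, and 0.659% of them had none. Of the solitary genes without such a neighbour, only *Pcdh7* and *Pcdh17* are among these 11980 loci, as the others had a mean below 1 FPKM. *Pcdh8*, *Pcdh17*, *Pcdh20* and *Pcdh9* follow each other within 13.2 Mb of chromosome 14, and *Pcdh10* and *Pcdh18* lie 4.36 Mb apart on chromosome 3.

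**Figure D4:**
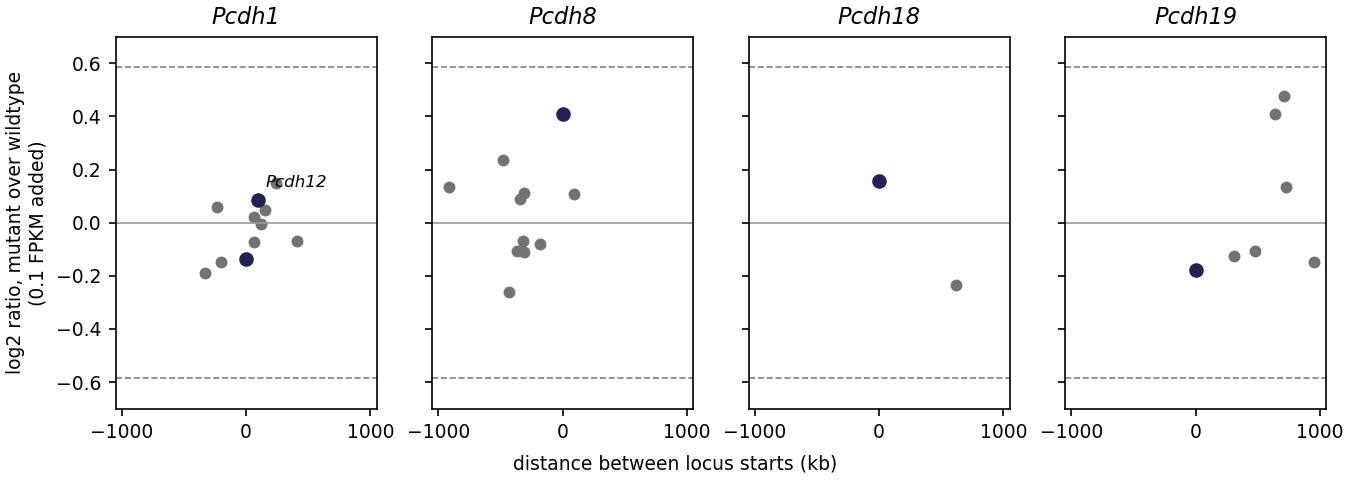
Log2 ratio of loci with a mean FPKM of 1 or more (grey) against the distance of their start from that of *Pcdh1*, *Pcdh8*, *Pcdh18* and *Pcdh19* in kb, with solitary protocadherins as dark circles and dashed lines at 1.5-fold. *Pcdh8* stands above its neighbours, *Pcdh1* and *Pcdh12* lie within the range of theirs, and *Pcdh19* (-0.18) lies just below its lowest neighbour (-0.15).

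Most classical cadherins expressed at E9.5 were likewise close in the genotypes. Of 11 classical cadherins with a mean FPKM of 1 or more, 1 was past 1.5-fold higher, the muscle cadherin *Cdh15* at 1.74 and 1.12 FPKM (0.60), and the median was -0.05. *Cdh15* lay just past the limit, and the count was 0 with 1 FPKM added and under 1 of the scalings. With a mean FPKM of 0.1 or more as the filter, 2 classical cadherins were past 1.5-fold higher and 1 was past 1.5-fold lower. N-cadherin *Cdh2* (62.8 and 65.7 FPKM, -0.07) and *Cdh11* (34.2 and 34.1 FPKM, 0.00) were the most abundant, and E-cadherin *Cdh1* had the lowest ratio (-0.27). In the Fat, Dachsous and Celsr group, whose large cadherins act in planar cell polarity, 5 of 7 were higher, with a median of 0.29 and 0 past 1.5-fold. *Celsr2* had the highest ratio there (12.2 and 8.52 FPKM, 0.51) and *Celsr1* the lowest (-0.07). *Fat1* (0.00) and *Dchs1* (0.33) were the most abundant, and the authors' program marked its comparison of *Fat1*, and of *Cdh6* among the classical cadherins, as failed.

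The proteins that act below cadherins at the membrane were measured as well. Of 6 catenins, 0 were past 1.5-fold with 0.1 FPKM added, with beta-catenin gene *Ctnnb1* at 421 and 418 FPKM (0.01) and *Ctnna1* at 91.4 and 94.6 FPKM (-0.05). The highest ratio was that of *Ctnna2*, the alpha-catenin of neurons (2.39 and 1.57 FPKM, 0.58), and the lowest that of *Ctnnd1* (-0.10). *Ctnna2* lay just under the limit, and the count was 1 with no value or 0.01 FPKM added and under 3 of 4 other scalings. Among 12 genes for the WAVE complex and other cytoplasmic partners of delta protocadherins, 6 were higher, 6 lower and 0 past 1.5-fold, with a median of 0.00. *Nckap1*, which encodes the Nap1 subunit bound by *Pcdh10*, was at 75.2 and 85.1 FPKM (-0.18), the lowest ratio of the list, and *Cyfip2* at 6.60 and 5.02 FPKM (0.39) the highest. *Set* and *Ppp1ca*, the most abundant, had -0.15 and 0.02.

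**Figure D5:**
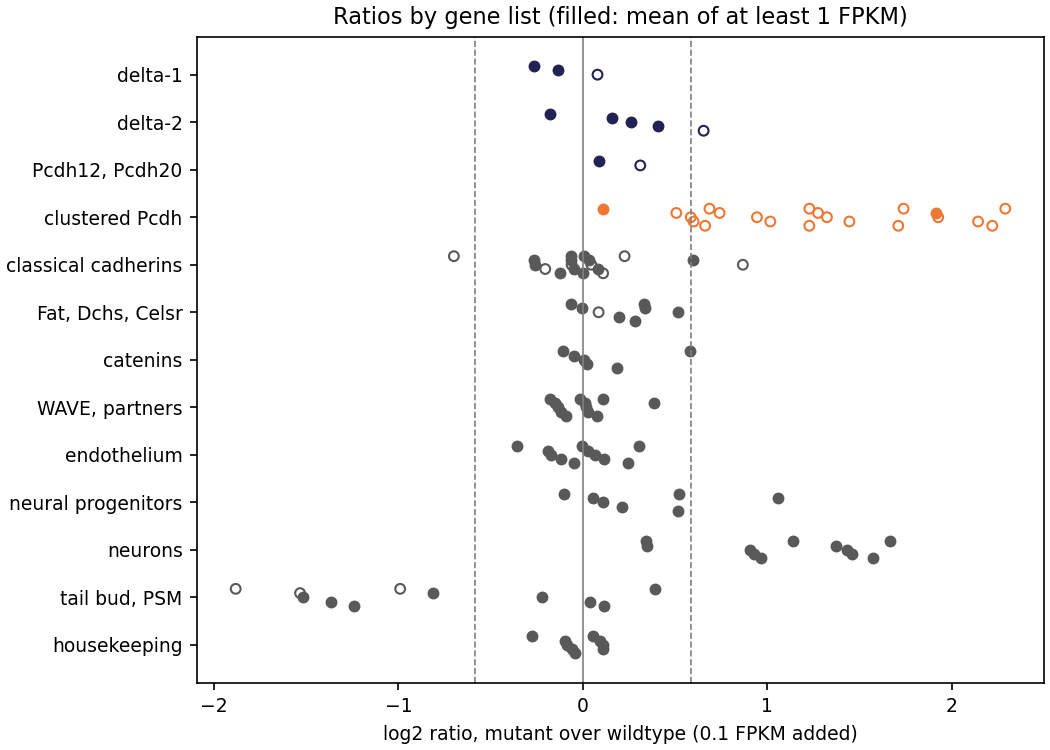
Log2 ratio of mutant over wildtype for each gene by list, filled where the mean was at least 1 FPKM, with dashed lines at 1.5-fold and entries at 0 in 1 genotype left out. The solitary protocadherins spread from -0.26 to 0.65, with several tail bud genes to their left and most neuron and beta protocadherin genes to their right.

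The libraries were nondirectional, so reads from a gene and from a transcript on its other strand could not be told apart by strand. In GENCODE M21, 1 gene on the other strand shares exon bases with each of *Pcdh7*, *Pcdh8*, *Pcdh10* and *Pcdh19*. In the table *4932441J04Rik*, at the locus of *Pcdh7*, was at 0.147 and 0.0256 FPKM, and *1700027H10Rik*, at that of *Pcdh10*, at 0.0407 FPKM in mutant embryos and 0 in wildtype. A pair of entries without a symbol shares the locus of *Pcdh1*, at 2.62 and 2.21 FPKM and at 3.85 and 3.25 FPKM, and both had a log2 ratio of 0.24, against -0.13 for *Pcdh1*. Their part in the values of *Pcdh1* was not tested.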

How the data were processed

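RNA-seq of 6 male E9.5 embryos, 3 per genotype by the labels, was used. Per the study's methods, single-end reads from nondirectional libraries were mapped to mm10, and the submitters' processing notes name TopHat2 2.0.6, Bowtie2 2.0.2 and Cufflinks and Cuffdiff 2.0.2. The deposited FPKM values, scaled by the authors for transcript length and mapped fragments, are 1 value per genotype and locus. The genotype of each column was read from the labelled copy of this table among the study's supplements. The deposited table also holds the authors' own fold changes, test statistics, p-values and q-values, which were not used. It gives no read counts, so depth and counting error are unknown.

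Log2 ratios, mutant over wildtype, were computed with 0.1 FPKM added. Loci with a symbol and a mean FPKM of 1 or more formed the background, and 1.5-fold was the limit. Each symbol was represented by its entry with the highest mean. Of 168 symbols in the lists, 2 (*Map2* and *Brk1*) were matched through RefSeq synonyms and *Dchs2* was not matched. Named genes were the 10 protocadherins, the 2 most abundant genes and those with the highest and lowest ratio in each list, and the nearest neighbours. The other genes named (*Tbx6*, *T*, *Msgn1*, *Mesp2*, *Isl1*, *Pcdhb2*, *Pcdhb6*, *Pcdhb21*, *Pcdhb22*, *Pcdhb1*, *Pcdhb9*, *Pcdh15*, *Cdh23*, *Cdhr2* and entries that share a locus) were chosen after their values were seen. The members and lists were chosen with earlier results of these data known. Gene models came from GENCODE M21 and promoters from RefSeq GRCm38.p6, both of the mm10 build. The calculation was tested on made-up data with known folds. Alternatives were other pseudocounts, filters, scalings and folds. Python 3.11.15, numpy 2.4.6, pandas 2.3.3 and matplotlib 3.10.9 were used.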

Additional observations from a re-analysis of the deposited data

How the results depend on the processing

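No paired analysis was possible because the table gives 1 pooled value per genotype, and for the same reason no embryo could be left out and no spread between embryos sets a tolerance. All 90 log2 ratios of the 10 protocadherins under other pseudocounts, scalings and folds kept their sign. Only the scalings could have changed a sign, since a value added to both genotypes cannot and another fold leaves the ratio as it is. Of the 90 ratios, 87 also kept their side of the fold. The exceptions were *Pcdh10*, which was no longer past the fold with 1 FPKM added (0.33) or at a fold of 2 (0.65), and *Pcdh8* (0.41), which was past a lower limit of 0.32 on the log2 scale. The median over the family stayed between 0.01 and 0.13. The number past the fold higher was 1 in place of 0 with a mean FPKM of 0.1 or more and with no filter (*Pcdh10* in both) and at that lower limit (*Pcdh8*), and the number past the fold lower stayed at 0 in all 13 alternatives. The share of all loci past the fold, 3.2% higher and 1.08% lower as reported, was 1.83% and 0.626% with 1 FPKM added, 5.92% and 2.27% with a mean FPKM of 0.1 or more, 1.28% and 0.644% with a mean FPKM of 5 or more, 8.28% and 4.28% at the lower limit of 0.32 and 0.860% and 0.351% at a fold of 2, and the share lower was 1.95% with no filter. Rescaling both genotypes to the same total moved the ratios of the 10 genes up by 0.027 to 0.043, as the totals were 941511 and 970248 FPKM. Of 478 counts and medians of the gene lists, 437 stayed within 1.5 times the count or 0.1 of the median. These lists include the delta-1, delta-2 and other solitary subgroups of the 10 genes.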

Other observations

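Of the other non-clustered protocadherins and related genes, 0 of 5 reached a mean of 1 FPKM. *Pcdh11x*, the X-linked delta-1 gene, was at 0.211 FPKM in the mutants and 0.141 FPKM in the wildtype (log2 ratio 0.37). The photoreceptor cadherin *Cdhr1* was the most abundant of the 5, at 1.10 and 0.847 FPKM (0.34). *Pcdh15* and *Cdh23*, which form the tip links of hair cells in the inner ear, were at or below 0.051 FPKM in both genotypes. *Cdhr2*, a cadherin of intestinal microvilli, had the lowest ratio, -0.70, at 0.0931 and 0.213 FPKM.

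Housekeeping genes were close in the genotypes. Of 9, 4 were higher, 5 lower and 0 past 1.5-fold, with a median of -0.04. *Ppia* (-0.06) and *Gapdh* (0.06) were the most abundant, and the ratios ran from -0.27 for *Pgk1* to 0.11 for *Actb*.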
